A study of Mus musculus with 12 samples.

Results

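The genes described here were 9 members of the Eph-ephrin and netrin guidance systems, measured as mRNA in the whole oviduct of immature mice. They comprised 3 Eph receptors (Epha1, Epha4 and Ephb6), 2 ephrins (Efnb1 and Efnb2), the secreted guidance cue netrin-1 (Ntn1), its receptor Dcc, the adhesion molecule L1cam, and Lrrc4c, which encodes a netrin-G ligand. They were chosen by their expression values on these arrays: the study listed each as differing at least 2-fold between the oviducts of ESR1KO and WT mice after PMSG. They are 9 of the 18194 genes that the array named by 1 symbol, and 9 of the 1914 genes whose rows were located in all 12 arrays. ESR1 is estrogen receptor alpha, and PMSG (pregnant mare serum gonadotropin) is a hormone that makes ovarian follicles grow and secrete estradiol. All mice were on a C57BL/6 background. The ESR1KO mice were ESR1-/-, or ESR1-/- with the Zp3cre transgene. The mice called WT were their siblings of genotype ESR1flox/-, or ESR1flox/- with that transgene, so that every control also lacked 1 working copy of ESR1. Cre was driven in the oocyte of the dams, and the deletion in the ESR1KO offspring was global. Oviducts of the WT and ESR1KO groups were collected at 23 days of age. Oviducts of the PMSG-treated groups came from mice that received 5 IU at the same age and were examined 48 h after it, so that PMSG and 2 further days of age cannot be told apart. Each group had 3 arrays, each of RNA pooled from 3 to 4 mice, and the replicates used different mice.

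Eph receptors are receptor tyrosine kinases that bind ephrins on a neighbouring cell, and signals pass into both cells. They are best known for repelling growing axons, and they also set tissue boundaries and guide the growth of epithelia and blood vessels. Netrin-1 is secreted and acts on Dcc, a transmembrane receptor that transmits attraction when netrin-1 is bound and can promote cell death when it is not. L1cam is a transmembrane adhesion molecule of nerve cells, leukocytes and some epithelia. Lrrc4c is a leucine-rich membrane protein that binds a netrin-G protein on the opposing cell. The oviduct is a tube of secretory and ciliated epithelium on a stroma with blood vessels, wrapped in smooth muscle and supplied by nerves, and several of these cell types use Eph-ephrin contacts.

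Signals are log2 expression values, on which 1 unit is a 2-fold difference, and signals under 4 were taken as near background because 41.5% to 42.3% of the values of every array lay there. The array medians ranged from 5.63 to 5.75. The number of arrays limits the precision of every value. In whole-organ RNA, fewer cells of a type and less RNA per cell cannot be told apart. Esr1 itself, the deleted gene, was between 12.92 and 13.05 in the WT arrays and between 12.21 and 12.82 in the PMSG-treated WT arrays. It was between 10.11 and 10.62 in the PMSG-treated ESR1KO arrays, and 10.42, 12.13 and 11.05 in ESR1KO replicates 1, 2 and 3. All 6 arrays of the ESR1KO genotype were thus below all 6 arrays of the WT genotype, with ESR1KO replicate 2 the closest to WT. The place of its probe set relative to the deleted part of the gene was not given in the sources used here. In untreated ESR1KO oviducts, 7 of 7 markers of secretory epithelium, 10 of 11 of ciliated epithelium (all but Spag6) and 9 of 9 of smooth muscle had a probe set at 4 or more. Of the nerve and Schwann cell markers only S100b, Mbp and Nefl of 10 did, and Sox10, Tubb3, Prph, Elavl4, Uchl1, Stmn2 and Cdh19 were near background. Of 9 ovarian markers, Foxl2, Inha and Star were at 4 or more, and the oocyte genes Gdf9, Zp3 and Oosp1 were near background.

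The 250 bases before the annotated start of 4 of the 9 genes are shown because the ESR1-binding element is built of the half-site GGTCA, which reads TGACC on the other strand, and these are the genes in which the window before the start held it. The half-sites are in capitals. The sequences are from RefSeq on build GRCm38.p6, each read 5′ to 3′ on the strand of its gene.
Epha4, chr1:77515089-77515338, minus strand: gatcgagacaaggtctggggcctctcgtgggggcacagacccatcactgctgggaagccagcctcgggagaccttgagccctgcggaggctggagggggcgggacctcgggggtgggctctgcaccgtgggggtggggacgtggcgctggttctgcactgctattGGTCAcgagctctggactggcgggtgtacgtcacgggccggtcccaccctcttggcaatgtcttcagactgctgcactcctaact
Efnb1, chrX:99135811-99136060, plus strand: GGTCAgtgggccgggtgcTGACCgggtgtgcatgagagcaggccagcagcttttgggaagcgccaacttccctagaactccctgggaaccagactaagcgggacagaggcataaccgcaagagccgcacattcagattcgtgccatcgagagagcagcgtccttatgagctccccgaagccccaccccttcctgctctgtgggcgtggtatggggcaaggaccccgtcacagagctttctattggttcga
Efnb2, chr8:8661243-8661492, minus strand: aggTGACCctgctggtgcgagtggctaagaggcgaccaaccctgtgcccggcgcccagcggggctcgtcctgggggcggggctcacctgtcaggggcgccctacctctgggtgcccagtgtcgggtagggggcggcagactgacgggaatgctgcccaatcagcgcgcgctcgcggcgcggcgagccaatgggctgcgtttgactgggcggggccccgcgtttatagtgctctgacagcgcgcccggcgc
L1cam, chrX:73880835-73881084, minus strand: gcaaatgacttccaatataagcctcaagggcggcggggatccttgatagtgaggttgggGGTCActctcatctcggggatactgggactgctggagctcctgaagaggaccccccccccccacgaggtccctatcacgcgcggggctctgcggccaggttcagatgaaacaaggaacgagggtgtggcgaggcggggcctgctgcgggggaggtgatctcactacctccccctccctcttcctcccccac
RefSeq promoters of 250 bases before to 50 bases after the start were held for 7 of the 9 genes, 8 promoters in all because L1cam had 2. No entry was used for Ntn1 and Dcc. The half-site was present in 5 of these 8 promoters, those of Epha4, Efnb1 and Efnb2 and both of L1cam, and in 40.5% of the 32851 mouse promoters of the same length. The 2 windows of L1cam overlap and hold the same half-site, so they are not independent entries in this count or in the Sp1 count below. The complete palindromic estrogen response element, which is GGTCA followed by any 3 bases and TGACC and therefore overlaps its half-sites, was in none of the 8 and in 0.07% of all promoters. The Sp1 motif GGGCGG, the sequence of a GC box that reads CCGCCC on the other strand, was in 6 of the 8 and in 35.7% of all promoters. The AP-1 motif TGANTCA, which reads the same on both strands, was in that of Lrrc4c only among the 8, and in 7.81% of all. These matches are letters in a window and not measured binding.

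The mRNA of 8 of the 9 genes was higher, and that of Dcc lower, in the oviducts of PMSG-treated ESR1KO than in those of PMSG-treated WT mice. This is the contrast by which the genes were chosen, so that the values describe the choice and no test is given. The differences on the log2 scale were 1.48 for Epha1, 1.69 for Epha4 and 2.03 for Ephb6. They were 1.12 for Efnb1 and 1.24 for Efnb2, 1.44 for Ntn1, 2.75 for L1cam and 1.17 for Lrrc4c. Dcc was lower by 6.57-fold, a log2 difference of -2.72, and L1cam was higher by 6.72-fold. All 9 passed the limits of at least 2-fold and a limma adjusted p under 0.05, which 4.48% of all 45101 rows passed, 2.76% as higher and 1.72% as lower, and nothing is read from this count. Without PMSG-treated ESR1KO replicate 3 the count was 5, with Ephb6, Efnb1, Ntn1 and Lrrc4c no longer past the limits, and with only the 6 arrays compared it was 6. Nearest to the 2-fold limit were Efnb1, at 2.18-fold, and Lrrc4c, at 2.25-fold. Of the other located genes of the pathway lists, Ablim1, which encodes an actin-binding LIM protein, lay below it at 1.8-fold.

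**Figure D1:**
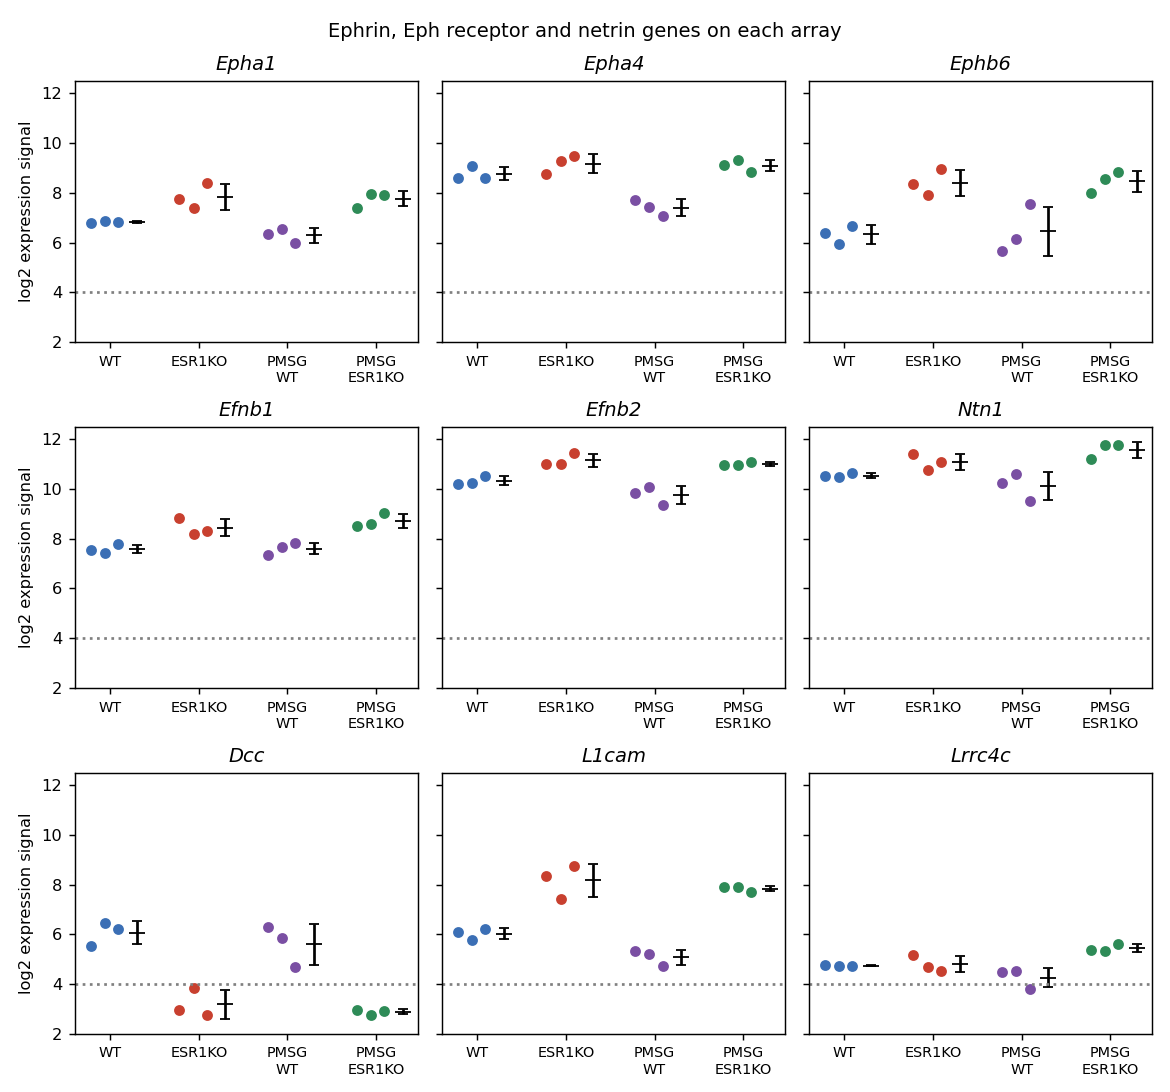
Log2 expression signal (vertical axis) of the 9 genes on each of the 12 arrays, by group (horizontal axis). Coloured points are single arrays, black bars are the mean and SD of 3 arrays, and the dotted line at 4 marks the near-background level. Mean Dcc is 6.07 in WT and 3.18 in ESR1KO, and mean L1cam is 6.03 and 8.17.

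The comparison of ESR1KO with WT oviducts at 23 days, before any PMSG, asks whether the genes already differed by genotype. Its differences come from 6 arrays that did not enter the contrast behind the choice. Its SEs and p-values also use the spread of the PMSG-treated arrays, which did enter that contrast. L1cam mRNA was 4.42-fold higher and Dcc mRNA 7.42-fold lower in ESR1KO, and these were the genes that passed the limits given above. The other 7 genes were not called, and 6 of the 9 had an unadjusted p under 0.05, as did 70.7% of the located rows. Of the 1997 located rows, 18.1% were called in this comparison, 9.06% as higher and 9.01% as lower, and the 2 of 9 stand against that. Adjusted p-values of this comparison and of those within ESR1KO are upper bounds, since only located rows had values on all 12 arrays and the correction was made as for 45101 tests. All located rows had also passed the study's overall model on the same 12 arrays, so their p-values are not independent of that selection. The arrays of the groups did not overlap for 7 of the 9 genes, against 78.5% of the located rows. The median difference of the 9 genes was 0.83, and that of the located rows was 0.15. The genes were chosen by a genotype difference after PMSG that was positive for 8 of the 9, so nothing is read from these medians.

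Among the Eph receptors, Epha1 (probe set 1422917_at), an epithelial receptor for ephrin-A ligands, had signals of 6.81, 6.88 and 6.84 in WT and of 7.77, 7.38 and 8.39 in ESR1KO. After PMSG they were 6.34, 6.55 and 5.99 in WT and 7.41, 7.97 and 7.93 in ESR1KO. Every ESR1KO array lay above every WT array at both ages, and PMSG-treated WT was below untreated WT. The difference between ESR1KO and WT was 1.00 (SE 0.27, n = 3 arrays a group, limma adjusted p at most 0.188), a 2-fold difference that did not pass the test.

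Epha4 (1421928_at), which binds ephrins of both the A and the B class, had signals of 8.60, 9.08 and 8.62 in WT and of 8.75, 9.30 and 9.47 in ESR1KO. In the PMSG-treated groups they were 7.72, 7.45 and 7.06 in WT and 9.12, 9.33 and 8.86 in ESR1KO. The groups without PMSG overlapped, and PMSG-treated WT stood below all 9 other arrays. Without PMSG, ESR1KO minus WT was 0.41 (SE 0.24, 95% interval -0.12 to 0.94).

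Ephb6 (1418051_at), a receptor for ephrin-B ligands without kinase activity, had signals of 6.39, 5.93 and 6.68 in WT and of 8.36, 7.90 and 8.95 in ESR1KO. With PMSG the signals were 5.65, 6.14 and 7.55 in WT and 8.0, 8.58 and 8.83 in ESR1KO. All 6 arrays of the ESR1KO genotype were above all 6 of the WT genotype, and replicate 3 of PMSG-treated WT was the highest of the latter. Between the untreated groups the difference was 2.07, or 4.2-fold (SE 0.46, limma adjusted p at most 0.075). Ephb6 was therefore not called here, and it was called without PMSG-treated WT replicate 3, at an adjusted p of at most 0.0068.

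The ephrins were the ligands of the Eph receptors. Efnb1 (1418286_a_at) encodes a transmembrane ephrin that signals into its own cell as well, and its signals were 7.54, 7.44 and 7.77 in WT and 8.83, 8.19 and 8.33 in ESR1KO. After PMSG they were 7.36, 7.65 and 7.81 in WT and 8.53, 8.61 and 9.04 in ESR1KO. Both ESR1KO groups were above both WT groups, and PMSG-treated WT overlapped WT. The difference between ESR1KO and WT was 0.87 (SE 0.21, limma adjusted p at most 0.13).

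Efnb2 (1419638_at), known as the ephrin of arteries and also present in epithelia, had signals of 10.20, 10.25 and 10.53 in WT and of 11.02, 10.99 and 11.46 in ESR1KO. In the PMSG-treated groups they were 9.84, 10.07 and 9.37 in WT and 10.95, 10.98 and 11.08 in ESR1KO. The arrays were arranged as for Epha1, with both ESR1KO groups highest and PMSG-treated WT lowest. Without PMSG, ESR1KO minus WT was 0.83, or 1.77-fold (SE 0.19, limma adjusted p at most 0.0899). The endothelial markers that were located, Pecam1, Kdr and Emcn, 3 of 8 listed, summed on the linear scale to 926 to 1244 in WT and to 256 to 484 in ESR1KO. After PMSG they summed to 805 to 1008 in WT and to 607 to 739 in ESR1KO. Kdr was not called in either comparison of genotypes, and Emcn was not called after PMSG. The part of endothelial cells in the Efnb2 result was not tested.

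Ntn1 (1454974_at) had signals of 10.52, 10.47 and 10.64 in WT and of 11.40, 10.77 and 11.07 in ESR1KO. With PMSG the signals were 10.25, 10.62 and 9.53 in WT and 11.19, 11.78 and 11.76 in ESR1KO. Both ESR1KO groups were above both WT groups, although the lowest ESR1KO array was close to the highest WT array. Between the untreated groups the difference was 0.54 (SE 0.27, 95% interval -0.05 to 1.13).

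Dcc (1440487_at), the receptor of netrin-1, had signals of 5.54, 6.44 and 6.23 in WT and of 2.96, 3.83 and 2.75 in ESR1KO. After PMSG they were 6.29, 5.84 and 4.68 in WT and 2.97, 2.76 and 2.92 in ESR1KO. All 6 arrays of the ESR1KO genotype were near background and all 6 of the WT genotype above it, so that the size of the difference is uncertain at its lower end. The difference between ESR1KO and WT was -2.89 (SE 0.42, limma adjusted p at most 0.0089), and Dcc fell in ESR1KO by this test. The call was lost without WT replicate 2 (adjusted p at most 0.0612), without WT replicate 3 (0.0516) and in the unmoderated two-way model of the study's methods (0.0554).

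L1cam (1450435_at) had signals of 6.11, 5.77 and 6.20 in WT and of 8.35, 7.43 and 8.73 in ESR1KO. In the PMSG-treated groups they were 5.31, 5.20 and 4.74 in WT and 7.89, 7.89 and 7.71 in ESR1KO. All 6 arrays of the ESR1KO genotype were above all 6 of the WT genotype, and PMSG-treated WT was below WT. L1cam rose in ESR1KO, by 2.14 on the log2 scale (SE 0.31, limma adjusted p at most 0.0089). The call was lost without WT replicate 2 (adjusted p at most 0.0619) and when only the 6 arrays compared were fitted (0.0888). L1cam is made by nerve cells and Schwann cells among others, and the located markers of those cells, Mbp and Nefl of 12 listed, had linear signals that summed to 12 to 28 in WT and to 52 to 79 in ESR1KO. After PMSG they summed to 19 to 29 in WT and to 87 to 179 in ESR1KO. The leukocyte markers Csf1r and Lyz2, 2 of 8 listed, summed to 1315 to 1944 in WT, 2124 to 2724 in ESR1KO, 874 to 1580 in PMSG-treated WT and 3136 to 4935 in PMSG-treated ESR1KO. The mesothelial marker Lrrn4, 1 of 4 listed, was 341 to 597 in WT, 1144 to 1271 in ESR1KO, 404 to 864 in PMSG-treated WT and 1471 to 1618 in PMSG-treated ESR1KO. The sums of these 3 sets of markers were higher in the ESR1KO groups, as L1cam was, and their part in the result was not tested. In ESR1KO versus WT, Nefl and Lrrn4 were called, and Mbp, Csf1r and Lyz2 were not. Nefl was near background in WT, at a mean of 1.90. The located probe set of Mbp had a mean of 4.97 in ESR1KO, and its other probe sets, which were not located, ran from 1.77 to 8.48 there. All located markers had passed the study's overall model, so they do not stand for the listed markers that were not located. The smooth muscle marker Actg2, 1 of 9 listed, was lower in them, at 3513 to 6161 in WT, 587 to 1468 in ESR1KO, 5474 to 6997 in PMSG-treated WT and 980 to 3783 in PMSG-treated ESR1KO. The stromal markers, 4 of 7 listed, were divided by their located probe sets: Lum and Col1a2 fell and Pdgfra rose in ESR1KO, and Postn was not called. The located probe set of Col1a2 was weak, at a mean of 4.41 in ESR1KO. Its other probe sets, at 13.33 and 14.01 there, were not located, so the groups could not be compared on them. Their sum was 23431 to 27124 in WT and 12003 to 20072 in ESR1KO, and it overlapped after PMSG, at 21002 to 28866 in WT and 21189 to 24663 in ESR1KO. No listed marker of secretory or ciliated epithelium was among the located rows, so the share of epithelium in the groups was not tested.

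Lrrc4c (1437201_at), the netrin-G ligand, had signals not far above background. They were 4.75, 4.73 and 4.71 in WT and 5.17, 4.69 and 4.53 in ESR1KO. With PMSG the signals were 4.48, 4.51 and 3.81 in WT and 5.36, 5.33 and 5.61 in ESR1KO. The untreated groups overlapped, and PMSG-treated ESR1KO was above all 9 other arrays. Without PMSG, ESR1KO minus WT was 0.06 (SE 0.24, 95% interval -0.45 to 0.58), which leaves out a 2-fold difference in either direction.

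**Figure D2:**
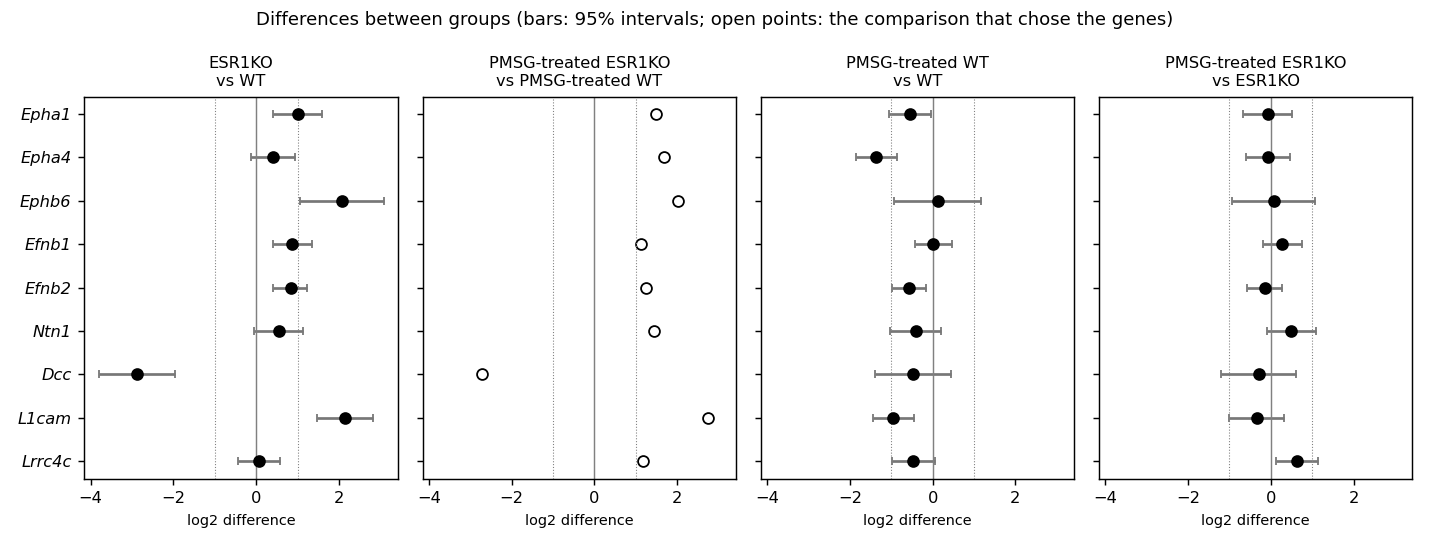
Log2 differences (horizontal axis) of the 9 genes in 4 comparisons of groups, with bars for 95% intervals from limma and dotted lines at 2-fold. Open points without bars are the comparison that chose the genes. Without PMSG, L1cam at 2.14 and Ephb6 at 2.07 lie furthest to the right and Dcc at -2.89 to the left, while the differences within ESR1KO lie between -0.34 and 0.64.

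The order of the groups was therefore not the same for all genes. Epha1, Efnb2 and L1cam were highest in ESR1KO, followed by PMSG-treated ESR1KO, WT and PMSG-treated WT, and for each of them only the first 2 groups overlapped. Epha4 had the same order, but its untreated WT arrays overlapped those of PMSG-treated ESR1KO. Ephb6 and Efnb1 were highest in PMSG-treated ESR1KO and lowest in WT, the ESR1KO groups overlapped each other, and so did the WT groups. Ntn1 and Lrrc4c were highest in PMSG-treated ESR1KO and lowest in PMSG-treated WT. For Dcc the order was reversed by genotype, with WT highest, PMSG-treated WT next, and the ESR1KO groups overlapping at the bottom.

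**Figure D3:**
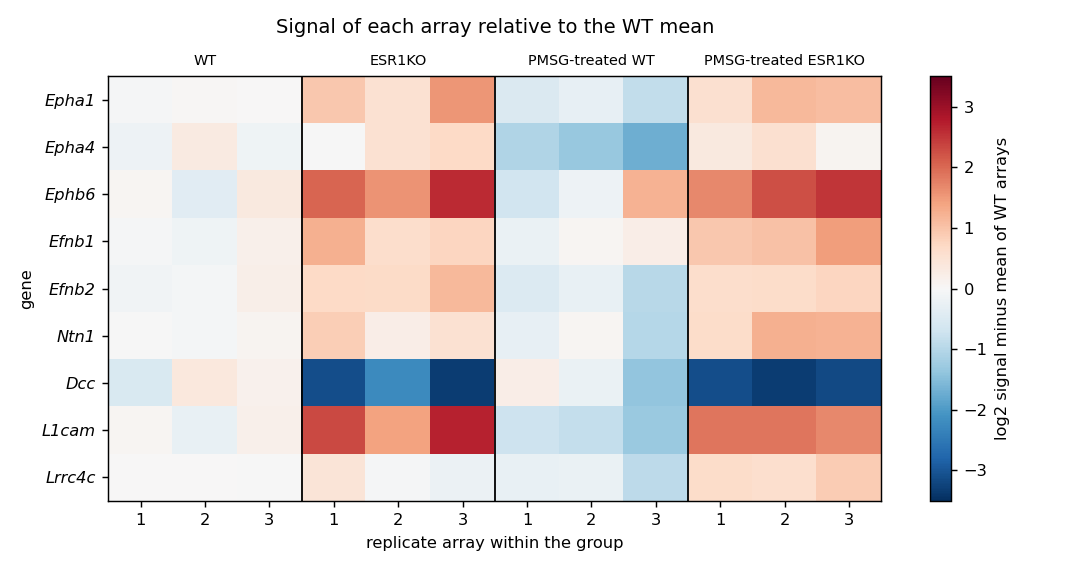
Signal of each gene (rows) on each array (columns, replicates 1 to 3 of each group) minus the mean of the WT arrays, in log2 units on the colour scale. Red is higher and blue lower than WT. The ESR1KO columns are red for Ephb6 and L1cam and blue for Dcc, and replicate 3 of PMSG-treated WT is the lowest of its group for 7 of the 9 genes.

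The comparison of PMSG-treated WT with WT shows what followed PMSG where ESR1 was present. The signals of 7 of the 9 genes were lower after PMSG and none of the 9 was called, as 0.251% of all 45101 rows were, 0.0732% of them as lower. By limma, 4 of the 9 had an unadjusted p under 0.05, against 9.25% of all rows, namely Epha1, Epha4, Efnb2 and L1cam. The 9 genes are located rows, which the study's overall model had selected. A share or median over all rows is therefore not a like background for them, and nothing is read from this count. The arrays of PMSG-treated WT also entered the contrast behind the choice of genes, which favours low values in that group, so that these differences are not independent of it. Epha4 had the largest one, -1.36 (SE 0.22, 95% interval -1.86 to -0.86, limma adjusted p = 0.058), equal to 2.56-fold lower. It was called without PMSG-treated WT replicate 3 (adjusted p = 0.0381), at a difference of -1.18. L1cam differed by -0.95 (SE 0.22, adjusted p = 0.159), Efnb2 by -0.57 (SE 0.18, adjusted p = 0.323) and Epha1 by -0.55 (SE 0.22, adjusted p = 0.468), all by limma. Lrrc4c and Dcc each differed by -0.47 and Ntn1 by -0.41, with 95% intervals that held 0. The values for Ephb6, 0.12, and Efnb1, 0.02, were the ones above 0, and the interval for Ephb6 was wide, from -0.94 to 1.17. The arrays did not overlap for 5 of the 9 genes, Epha1, Epha4, Efnb2, L1cam and Lrrc4c, against 13.5% of all rows and 53.0% of the located rows. The median difference of the 9 genes was -0.47, and that of all rows was 0.01.

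Within ESR1KO mice, none of the 9 genes was called after PMSG, against 0.100% of the located rows. By limma, only Lrrc4c had an unadjusted p under 0.05, as did 17.4% of the located rows. Its difference was 0.64 (SE 0.24, 95% interval 0.12 to 1.15, limma adjusted p at most 1). The PMSG-treated ESR1KO arrays also entered the choice. Ntn1 differed by 0.50 (SE 0.27) and Efnb1 by 0.28 (SE 0.21). The other 6 lay between -0.34, for L1cam, and 0.07, for Ephb6, and the arrays overlapped for all genes but Lrrc4c, against 21.5% of the located rows whose arrays did not overlap. The 95% interval of the difference was -0.60 to 0.46 for Epha4.

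The difference between those responses, PMSG in ESR1KO minus PMSG in WT, contains the contrast by which the genes were chosen, and it is given as a description. It was above 0 for 8 of the 9 genes, with 1.29 (SE 0.34) for Epha4, 1.10 (SE 0.33) for Lrrc4c and 0.91 (SE 0.38) for Ntn1. It was 0.60 for L1cam, 0.48 for Epha1, 0.42 for Efnb2, 0.26 for Efnb1, 0.17 for Dcc and -0.05 for Ephb6. By limma, none of the 9 passed an adjusted p under 0.05 and 3 had an unadjusted p under 0.05, against 0.651% of located rows called and 36.3% at that unadjusted p. Side by side, the genotype differences without and with PMSG were 2.07 and 2.03 for Ephb6, 0.87 and 1.12 for Efnb1, 2.14 and 2.75 for L1cam, and -2.89 and -2.72 for Dcc. For Epha4 and Lrrc4c these pairs of values were 0.41 and 1.69, and 0.06 and 1.17.

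**Figure D4:**
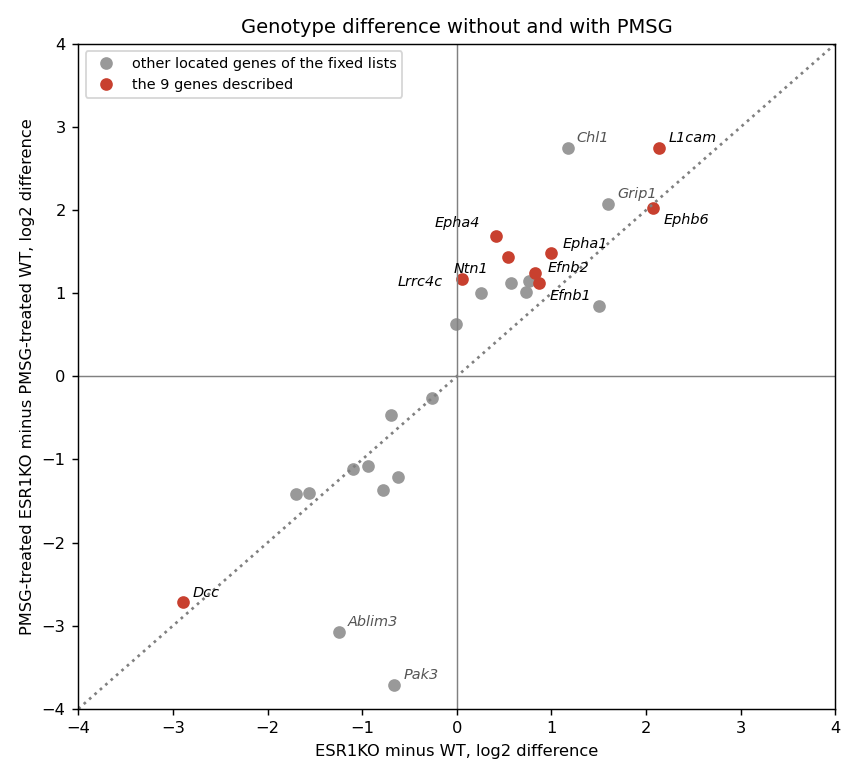
Log2 difference between genotypes without PMSG (horizontal axis, ESR1KO minus WT) and with PMSG (vertical axis, PMSG-treated ESR1KO minus PMSG-treated WT), which share no arrays. Red points are the 9 genes, grey points the 18 other located genes of the pathway lists, and the dotted line marks equal differences. Ephb6 and Dcc lie close to the line, Epha4 and Lrrc4c lie above it near 0 on the horizontal axis, and Pak3 and Ablim3 lie far below it.

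Across the 12 arrays the 9 genes varied together, as follows in part from their choice. For the 28 pairs without Dcc, Pearson correlations of the log2 signals ran from 0.47 to 0.96 with a median of 0.81, and the 8 pairs with Dcc ran from -0.96 to -0.53. These points share the 4 group means and are descriptions. Among ESR1KO arrays, replicate 2 was the nearest to WT for 8 of the 9 genes, and for Epha4 it was replicate 1. The margin could be small, as for Efnb2, at 10.99 in replicate 2 and 11.02 in replicate 1. The same count was not made over the located rows, so it is not shown to be particular to these genes. Replicate 2 was also the ESR1KO array with the highest Esr1 signal. Without ESR1KO replicate 2 the difference between ESR1KO and WT was 2.51 for L1cam, -3.22 for Dcc, 2.32 for Ephb6 and 1.24 for Epha1. Leaving out the array nearest to WT enlarges the difference by construction. Without ESR1KO replicate 3 the values were 1.87 for L1cam, -2.68 for Dcc, 1.8 for Ephb6 and 0.73 for Epha1. A link with the Esr1 signal was not tested. Among located genes, the patterns most like those of Epha1 and Efnb2 included Muc1, a membrane mucin of epithelia, with correlations of 0.98 and 0.99 over 12 arrays. For L1cam they were Bcl11b, a zinc finger transcription factor, and Cldn9, a tight junction claudin, both at 0.99. For Ntn1 they were the basement membrane genes Lamb2, at 0.98, and Col4a5, at 0.97. Ephb6 was most like Clcn5, at 0.99, and Col9a2, at 0.98, and Epha4 like Ccna1 and Entpd5, both at 0.95. Efnb1 was most like Fzd7 and Pla2g15, both at 0.97. Dcc was most like 2310046A06Rik and the calcium channel subunit gene Cacna2d3, both at 0.99, and Lrrc4c was most like Gdf10, at 0.98, and Nkd2, at 0.97. Chrnb1, at 0.98, was the other gene for Epha1, and Prosapip1, at 0.99, for Efnb2.

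The rest of these families could be read in untreated ESR1KO oviducts, whose columns carry the probe set names. Of 13 Eph receptor genes considered, 8 had a probe set at 4 or more, and Epha5, Epha6, Epha8, Epha10 and Ephb1, had none. All 8 ephrin genes had one, the highest being a probe set of Efnb2 at 12.02. Of 16 genes of netrins, netrin receptors and netrin-G ligands, 7 had one, and 9 did not: Dcc, Dscam, Lrrc4b, Ntn3, Ntn5, Ntng2, Unc5a, Unc5b and Unc5d. In the L1 family, L1cam and Chl1 had one, and Nrcam and Nfasc had none. The 9 genes had 26 probe sets on the array, and each difference above rests on 1 of them, since the other rows were not located in the other 9 arrays. In ESR1KO the other probe sets were all under 4 for Epha1, Ntn1, Dcc, L1cam and Lrrc4c, as low as 1.27 for Epha1, whose located probe set was at 7.84. For Epha4 they ran from 2.84 to 10.15, for Efnb1 from 8.42 to 9.72 and for Efnb2 from 3.93 to 12.02. Ephb6 had no other probe set.

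**Figure D5:**
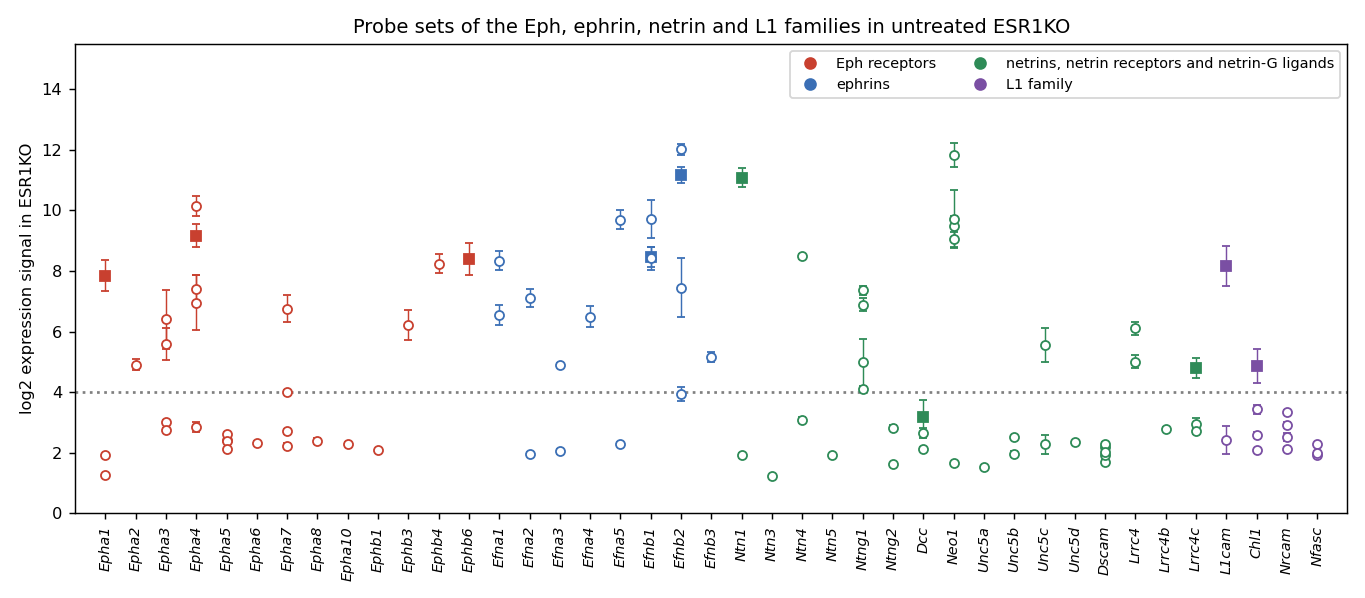
Log2 expression signal in untreated ESR1KO oviducts (vertical axis, mean and SD of 3 arrays) of each probe set of the Eph receptors, ephrins, netrin group and L1 family (horizontal axis, by gene). Filled squares are the probe sets located in all 12 arrays, open circles the others, and the dotted line at 4 marks the near-background level. The 8 ephrins each have a probe set above the line, while 9 of 16 genes of the netrin group do not.

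The lists of the pathway held 125 further genes, of which 18 were located on all arrays. In the contrast of genotypes after PMSG, which chose the 9 genes, 6 of the 18 were higher (Chl1, Grip1, Nfat5, Nfatc4, Sema4d and Sema5b), 7 were lower (Ablim3, Enah, Fyn, Myo10, Nrp2, Pak3 and Sema3e) and 5 were not called, against 48.3% of located rows called. The study had listed all 18, so this count follows from how they were found. In ESR1KO versus WT, Ablim1 and Grip1 rose, Fyn and Nrp2 fell, and the other 14 were not called, against 18.1% of located rows called. Fyn, a Src-family kinase that acts below ephrin-B and Dcc, was 2.95-fold lower (SE 0.22 on the log2 scale, limma adjusted p at most 0.008). Its arrays were 10.82, 10.79 and 10.91 in WT and 9.28, 9.73 and 8.82 in ESR1KO, which do not overlap. Grip1, a scaffold that binds the tail of ephrin-B and of several Eph receptors, was 3.02-fold higher (log2 SE 0.27, limma adjusted p at most 0.0218), like its partners Efnb1 and Efnb2 in sign. Nrp2, a semaphorin receptor, was 3.25-fold lower (log2 SE 0.26, limma adjusted p at most 0.0129). Chl1, the close relative of L1cam, was near background in WT, at 3.70, and in PMSG-treated WT, at 3.42. Its mean was 4.86 in ESR1KO, where it was not called (limma adjusted p at most 0.0676), and 6.17 in PMSG-treated ESR1KO.

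Pak3, a kinase that acts on the actin cytoskeleton, behaved unlike any of the 9 genes. Its signals were 3.80, 4.43 and 4.00 in WT and 7.62, 7.14 and 7.19 in PMSG-treated WT, but 3.39, 3.63 and 3.23 in ESR1KO and 3.87, 3.76 and 3.22 in PMSG-treated ESR1KO. By this located probe set, Pak3 was above background on all arrays of PMSG-treated WT, and near it in both ESR1KO groups. In untreated ESR1KO the other probe sets of Pak3 had means of 5.07, 6.37 and 6.22, all above 4. Pak3 mRNA was therefore not near background there by every probe set. Those rows were not located in the other 9 arrays, so the groups could not be compared on them. Pak3 was higher after PMSG in WT, by 9.48-fold (limma adjusted p = 0.00236), the only one of the 18 called in that comparison. Of all rows, 0.177% were called as higher there, which is not a like background for located rows. For the difference in response between genotypes, -3.05 (SE 0.35), it was also the only one called, against 0.651% of located rows. Pak3 was named for its large genotype difference after PMSG. Arrays of that contrast entered both values, so neither is an independent test of Pak3. Ablim3, an actin-binding LIM protein, differed in the same direction after PMSG in WT but by less, 4.22-fold. That log2 difference of 2.08 (SE 0.41, limma adjusted p = 0.0983) did not pass the test. The semaphorins Sema4d, Sema5b and Sema6d differed between ESR1KO and WT by 0.76, 0.57 and -1.10, and none of the 3 was called.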

How the data were processed

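Whole-oviduct RNA was measured on 12 Affymetrix arrays. The deposited values are log2 signals, made by the authors in Partek 6.6 by GC-RMA, with quantile normalization and a median polish over each probe set. Background correction compresses weak signals. Of the 12 columns, the 3 of untreated ESR1KO are in the order of the named probe sets, and the other 9 are in a different order that they share. Rows were therefore located by matching group differences and p-values that the study lists, used as row keys only and neither printed nor compared. All 1997 listed rows held here were located, at most 8.76e-05 log2 units from their keys. For the 9 genes the listed p-values were met within 0.0297%, and the next candidate differed by 8.08% or more. The annotation symbol, not used in the match, was the same for all 9 and for 1896 of 1903 rows that had one. The same keys place the genes and chose them, so the match is no test of them.

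The genotypes after PMSG, and WT with and without PMSG, were compared with limma 3.58.1 (R 4.3.3, variance trend) on 9 arrays over 45101 rows, since the other 3 columns could not be joined to them row by row. The remaining comparisons used all 12 arrays on the 1997 rows, with the prior variance taken from the fit of 9 arrays (2.87 prior df) and Benjamini-Hochberg adjustment as for 45101 tests. Calls needed an adjusted p below 0.05 together with a 2-fold or larger difference, which was not asked of the difference in response. The fits were tested on simulated data. Replicate numbers were not shown to pair the arrays: of 18 same-numbered pairs, 6 had a correlation of deviations over 0.1.

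Genes were named by rule: the 9 genes, every located gene of the Eph, ephrin, netrin and L1 lists, up to 4 located genes of each other list with the largest difference after PMSG, Esr1, and for each of the 9 the 2 located genes of highest correlation. Other list genes are named where a count of calls or a 2-fold limit concerns them. Lists of semaphorins, plexins and neuropilins (31 genes, 6 located), Slits and Robos (7 genes, 0 located) and intracellular partners (55 genes, 11 located) were used. The 9 genes and the lists were chosen with earlier results of these data known. At least 1 further Eph receptor and 1 other list gene are not reported here. Alternatives tried were the unmoderated two-way model, other filters and fold limits, repeated normalization, no variance trend, a replicate block, fits on the arrays compared, and leaving out each array.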

Additional observations from a re-analysis of the deposited data

Results flagged for a closer look

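Lrrc4c, the netrin-G ligand, had differences after PMSG of opposite sign in the 2 genotypes, 0.64 in ESR1KO and -0.47 in WT, neither of which was called. Every PMSG-treated ESR1KO array (5.36, 5.33 and 5.61) was above every ESR1KO array (5.17, 4.69 and 4.53), and every PMSG-treated WT array (4.48, 4.51 and 3.81) was below every WT array (4.75, 4.73 and 4.71). Arrays did not overlap, in either direction, for 21.5% of the located rows within ESR1KO and for 53.0% within WT. Both PMSG-treated groups entered the choice of Lrrc4c, which favours these separations. The response in ESR1KO exceeded that in WT by 1.10 on the log2 scale (SE 0.33), and this difference was not tested independently, because it contains the contrast by which Lrrc4c was chosen. It ranged from 0.88 to 1.29 when single arrays were left out, with the lowest value without PMSG-treated WT replicate 3.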

How the results depend on the processing

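The number of the 9 genes called in ESR1KO versus WT was 2, and it was 1 in the unmoderated two-way model (Dcc lost), 1 with only the 6 arrays compared (L1cam lost) and 0 to 3 when single arrays were left out. It was 0 without WT replicate 2, 1 without WT replicate 3 and 3 without PMSG-treated WT replicate 3, where Ephb6 was gained. With the replicate block Ephb6 was called in this comparison as well (log2 difference 2.07, adjusted p at most 0.0256), and also when rows with a mean under 4 were left out (adjusted p at most 0.0408). In PMSG-treated WT versus WT the count was 0, and 1 (Epha4) with a mean signal of at least 4. It was 0 to 1 when single arrays were left out. In the contrast behind the choice it was 9, 7 in the unmoderated model (Ephb6 and Ntn1 lost), 6 with only the arrays compared (Ephb6, Ntn1 and Lrrc4c lost), and 5 to 9 when single arrays were left out, with 5 without PMSG-treated ESR1KO replicate 3. The cause of these changes was not tested. Direction changed only for differences that were not called, when single arrays were left out. In ESR1KO versus WT, Lrrc4c ranged from -0.12 to 0.20. In PMSG-treated WT versus WT, Ephb6 ranged from -0.44 to 0.52 and Efnb1 from -0.08 to 0.15. In PMSG-treated ESR1KO versus ESR1KO, Epha1 ranged from -0.31 to 0.20, Epha4 from -0.28 to 0.08, Ephb6 from -0.18 to 0.34, Efnb2 from -0.24 to 0.00 and Dcc from -0.51 to 0.03. For the difference in response, Ephb6 ranged from -0.45 to 0.51 and Dcc from -0.29 to 0.52. Dcc in ESR1KO was near background, which limits the size of its difference.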
